A study of Mus musculus with 13 samples.

Results

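The genes described here are 8 secreted signals of Yumm1.7 cells, a mouse melanoma line: the chemokines Cxcl9, Cxcl10, Cxcl1, Ccl2, Ccl5, Ccl7 and Cx3cl1, and the cytokine Il6. They were taken as the rows of the count table whose Ensembl identifier carries one of these symbols in the GENCODE mouse annotation, and all 8 were found among 54532 genes. The 13 libraries were made from cells of genotype WT by their labels, with 1 library per condition: total RNA, RNA precipitated with the antibody J2 and RNA precipitated with Z22, each after DMSO, either agent alone (ADAR1i-124 or 5-Aza-CdR) or both agents together, called the combination, and 1 library precipitated with IgG as the control. ADAR1i-124, an inhibitor of the RNA-editing enzyme ADAR1, was given at 10 μM for 12 h, and 5-Aza-CdR, an inhibitor of DNA methyltransferases, at 1 μM for 72 h, so the agents differ in dose and time. For the combination, 5-Aza-CdR at 1 μM came first and ADAR1i-124 at 10 μM was then added for 12 h, as far as the study's supplement describes it. A lower dose of ADAR1i-124 was also combined with 5-Aza-CdR there, and the labels do not say which dose the combination libraries had. How the cells of the IgG library were treated is not given. J2 binds dsRNA and Z22 binds RNA in the Z conformation. Because each condition has 1 library, none of the differences below has a replicate check, and every value compares libraries of 1 cell line.

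Chemokines are small secreted proteins that guide leukocytes along a gradient. Cxcl9 and Cxcl10 are interferon-induced ligands of Cxcr3 and attract activated T cells and NK cells, Ccl5 recruits T cells and monocytes through receptors that include Ccr1, Ccl2 and Ccl7 recruit monocytes through Ccr2, Cxcl1 attracts neutrophils through Cxcr2, and Cx3cl1 is a membrane-anchored ligand of Cx3cr1 that is shed by proteases. IL-6 is a cytokine that acts through Il6ra and Il6st on the transcription factor Stat3. The promoters of several of these genes are textbook targets of NF-κB, and those of Cxcl10 and Ccl5 also of interferon regulatory factors, which are activated when dsRNA is sensed in the cytosol.

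The promoters of Cxcl10, Cxcl1 and Il6 are shown because Cxcl10 and Cxcl1 lay in opposite directions after ADAR1i-124 and Il6 had the largest fold difference of the 8 after 5-Aza-CdR in total RNA. Each sequence is the 250 bases before the transcription start in RefSeq (build GRCm38.p6), with motif matches in capitals.
Cxcl10 (chr5:92348890-92349139, minus strand): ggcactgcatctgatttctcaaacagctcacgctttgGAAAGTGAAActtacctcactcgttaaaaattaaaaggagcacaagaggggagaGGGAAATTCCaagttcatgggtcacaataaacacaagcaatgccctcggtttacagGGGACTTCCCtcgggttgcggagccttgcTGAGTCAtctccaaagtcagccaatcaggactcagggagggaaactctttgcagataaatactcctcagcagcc
Cxcl1 (chr5:90890995-90891244, plus strand): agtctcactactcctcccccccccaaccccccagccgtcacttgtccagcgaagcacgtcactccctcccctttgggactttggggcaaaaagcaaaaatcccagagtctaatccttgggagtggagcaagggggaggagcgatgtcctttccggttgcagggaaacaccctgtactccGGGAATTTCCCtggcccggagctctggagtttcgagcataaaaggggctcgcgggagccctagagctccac
Il6 (chr5:30012864-30013113, plus strand): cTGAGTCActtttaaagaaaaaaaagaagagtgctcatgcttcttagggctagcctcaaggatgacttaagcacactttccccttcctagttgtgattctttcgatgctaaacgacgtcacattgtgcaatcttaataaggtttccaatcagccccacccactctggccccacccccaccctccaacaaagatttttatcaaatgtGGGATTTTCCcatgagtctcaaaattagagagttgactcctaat

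RefSeq entries were found for 5 of the 8 genes (Cxcl9, Cxcl10, Cxcl1, Cx3cl1 and Il6) and not for Ccl2, Ccl5 and Ccl7. Both strands of 300 bases (250 before and 50 after the start) were searched for the interferon-stimulated response element (ISRE, GAAANNGAAA), the κB site, AP-1 (TGANTCA), CRE (TGACGTCA) and GAS (TTCNNNGAA). Of these 5 promoters, Cxcl10 alone held an ISRE, at positions -213 to -204, together with κB sites at -159 to -150 and -103 to -94 and an AP-1 site at -74 to -68. Cxcl1 held a κB site at -71 to -61, made of 2 overlapping matches, and Il6 a κB site at -44 to -35 and an AP-1 site at -249 to -243. Cxcl9 held an AP-1 match after its start and Cx3cl1 none of the motifs. Of 32851 promoters in the table, 3.44% held an ISRE, 4.51% a κB site, 7.81% an AP-1 site, 1.79% a CRE and 8.30% a GAS. The 300 bases held 3 CpG in Il6, 4 in Cxcl9, 10 in Cxcl10, 10 in Cxcl1 and 19 in Cx3cl1, against a median of 7 over all promoters. A match is a description of the letters and no evidence of binding.

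By position (GRCm38), Cxcl1 (chr5:90891241-90893115), Cxcl9 (chr5:92321347-92328079), Cxcl10 (chr5:92346638-92348889) and Il6 (chr5:30013114-30019981) lie on chromosome 5, Ccl2 (chr11:82035571-82037453), Ccl7 (chr11:82045712-82047525) and Ccl5 (chr11:83525778-83530518) on chromosome 11, and Cx3cl1 (chr8:94772009-94782427) on chromosome 8. Ccl2 and Ccl7 are neighbours on the same strand. Cxcl10 overlaps Art3 on the other strand, which had at most 91 counts in any library read here, and Ccl2 overlaps Gm17268 on the other strand, with at most 7 counts. AUUUA, a core of the AU-rich elements that destabilize mRNA, occurred 7 times in the 592 bases of the 3′ end of Cxcl1, a density higher than that of 99.5% of 19938 genes. It occurred 10 times in 1668 bases of Il6, 3 times in Cxcl10 and in Cxcl9, 2 times in Ccl7, 1 time in Ccl2 and in Cx3cl1, and 0 times in Ccl5.

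Levels are given as CPM, the count scaled by the library total. Totals ran from 17015425 to 34571822 counts in the 3 total RNA libraries read, from 11767409 to 14396132 with J2 and from 8167960 to 14663357 with Z22, and the smallest number taken as detected, 3 counts, was 0.0868 to 0.367 CPM. The total RNA library of the combination had 1245894 counts that follow the other strand, its Spearman correlation across genes with the other libraries was 0.143 to 0.188 against 0.872 to 0.932 among those, and it held 0 to 12 counts per gene of the 8, so it is not read. The Z22 DMSO library also stood apart: the single gene Gm42418 took 34.9% of its counts, against 10.6% to 15.8% in the other Z22 libraries, and its TMM factor was 0.595. The label of melanoma rested on few lineage genes: of 8 melanocyte markers, Mitf had 96 to 1145 counts in the libraries read, Pmel at most 15, and Tyr and Tyrp1 0 in all of them. Intervals are 95% and reflect counting error alone, since PCR copies cannot be told from separate molecules here.

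Ccl2 was the most abundant of the 8 transcripts and Cxcl9 and Il6 were the least abundant in the total DMSO library. On the scale of CPM per kb of exon, which allows genes to be compared, the level in the total DMSO library was 578 for Ccl2, 83.6 for Cxcl10, 49.0 for Cxcl1, 41.3 for Ccl7, 38.9 for Ccl5, 4.46 for Cx3cl1, 0.387 for Il6 and 0.156 for Cxcl9. In this order the intervals of Ccl7 (38.0 to 44.9) and Ccl5 (35.9 to 42.0) overlapped, as did those of Il6 (0.221 to 0.629) and Cxcl9 (0.0673 to 0.307). Ccl2 ranked 27th of all genes per kb after DMSO, 90th after ADAR1i-124 and 8th after 5-Aza-CdR.

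The make-up of the group differed with treatment. Ccl2 held 64.0% of the reads of the 8 genes in the total DMSO library, 41.4% after ADAR1i-124 and 74.8% after 5-Aza-CdR. Cxcl1 held 8.94%, 50.8% and 11.8%, and Cxcl10 held 18.3%, 3.65% and 2.55%. After ADAR1i-124 the neutrophil chemokine thus had more reads than the 7 other genes together, and after 5-Aza-CdR Cxcl10 ranked below Ccl5 per kb (31.7 against 106).

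Cxcl9 and Il6 had few counts. Cxcl9 had 8 counts after DMSO, 0 after ADAR1i-124 and 31 after 5-Aza-CdR in total RNA, then 1, 0, 23 and 47 with J2 and 0, 4, 11 and 22 with Z22 (in the order DMSO, ADAR1i-124 alone, 5-Aza-CdR alone, combination), and 4 with IgG. It was under 3 counts in 4 of 12 libraries, and its 4 highest CPM were those of the 5-Aza-CdR and combination precipitates. Il6 had 16, 24 and 218 counts in total RNA, 25, 6, 39 and 37 with J2, 6, 10, 6 and 23 with Z22, and 18 with IgG. It was at 1 CPM or more in 7 of 12 libraries. Both genes reached their largest counts where 5-Aza-CdR was present.

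**Figure D1:**
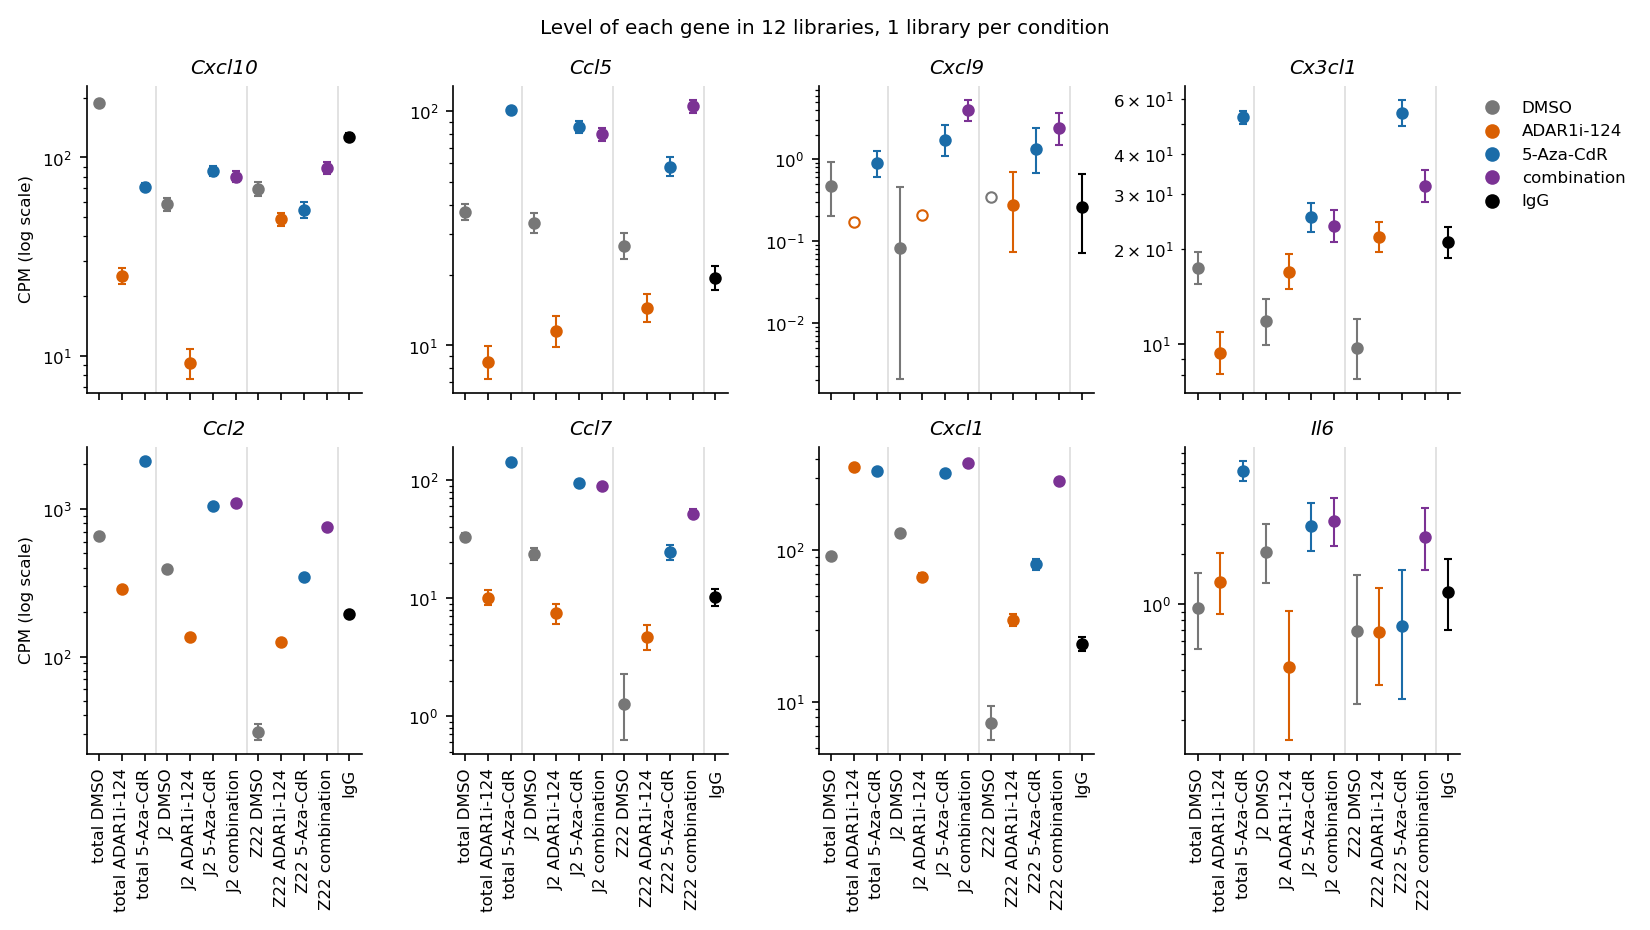
Level of each gene in CPM on a log axis in the 12 libraries read, 1 point per library coloured by treatment, with 95% Poisson intervals of the count; open points mark libraries with 0 counts, drawn at the level of 3 counts, and grey lines part the fractions. Cxcl10 was highest in total DMSO (188 CPM), while Ccl2, Ccl7 and Il6 were highest in total 5-Aza-CdR (2097, 141 and 6.31 CPM).

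In total RNA, ADAR1i-124 went with lower Cxcl10, Ccl5, Ccl7 and Ccl2 and with higher Cxcl1, the comparison that asks what the inhibitor alone did in 12 h. Cxcl10 had 3204 counts (188 CPM) after DMSO and 447 (25.4 CPM) after ADAR1i-124, 7.42-fold lower (log2 -2.87, interval -3.04 to -2.75). Ccl5 had 635 and 150 counts (37.3 and 8.51 CPM), 4.38-fold lower (log2 -2.07, -2.40 to -1.87). These were the 2 largest differences downward among the 7 genes with enough counts. The study reports the opposite direction for Cxcl10 in this line, with Cxcl9 and Cxcl10 raised by ADAR1i-124 in quantitative PCR. Its PCR samples were taken later than the 12 h of these libraries, and the reason for the difference was not tested.

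The monocyte chemokines were lower by less. Ccl7 had 563 and 178 counts (33.1 and 10.1 CPM; log2 -1.66, -1.96 to -1.47), and Ccl2 had 11184 and 5059 counts (657 and 287 CPM; log2 -1.19, -1.24 to -1.15). Cx3cl1 had 298 and 166 counts (17.5 and 9.42 CPM; log2 -0.86, -1.18 to -0.62). Cxcl1 went the other way, with 1562 counts (91.8 CPM) after DMSO and 6209 (352 CPM) after ADAR1i-124, 3.84-fold higher (log2 1.93, 1.86 to 2.02). For Il6 the difference was within counting error (log2 0.37, -0.44 to 1.55). Cxcl9, at 8 and 0 counts, was 2.76-fold lower after ADAR1i-124 with the 0 taken at the floor of 3 counts. The upper end of its log2 interval was -0.82.

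Log2 values are ratios of CPM with 0.5 CPM added to each side, so differences of low genes come out too small, and intervals carry no such addition. Averaged over the libraries compared, 7 of the 8 genes reached 1 CPM. At a 4-fold line 0 were higher, where 1.88% of 13693 genes were, and 2 were lower (Cxcl10 and Ccl5), where 2.05% were. At a 2-fold line 1 was higher and 4 were lower, against 7.71% and 8.70% of all genes. The median log2 difference was -1.19 over the 7 genes and -0.09 over all genes. In bulk RNA, fewer cells of a type and less RNA per cell cannot be told apart.

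In total RNA, 5-Aza-CdR went with higher Il6, Ccl7, Cxcl1, Ccl2, Cx3cl1 and Ccl5 and with lower Cxcl10. Il6 had 16 counts (0.940 CPM) after DMSO and 218 (6.31 CPM) after 5-Aza-CdR, 6.71-fold higher (log2 2.24, 2.01 to 3.58). Ccl7 had 563 and 4888 counts (33.1 and 141 CPM), 4.27-fold higher (log2 2.08, 1.97 to 2.22). Ccl2, its neighbour, had 11184 and 72483 counts (657 and 2097 CPM), 3.19-fold higher (log2 1.67, 1.65 to 1.70). Per kb of exon Ccl2 ranked 8th and Ccl7 148th of all genes in this library.

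Cxcl1 was 3.61-fold higher (91.8 and 332 CPM; log2 1.85, 1.78 to 1.93), close to its level after ADAR1i-124. Cx3cl1 was 2.99-fold higher (17.5 and 52.4 CPM; log2 1.55, 1.40 to 1.76) and Ccl5 2.72-fold higher (37.3 and 101 CPM; log2 1.43, 1.32 to 1.57). Cxcl10 was the exception, with 3204 and 2466 counts (188 and 71.3 CPM), 2.64-fold lower (log2 -1.39, -1.48 to -1.32). Cxcl9, its neighbour on the chromosome, did not differ beyond counting error (8 and 31 counts; log2 0.53, -0.22 to 2.26). Of 7 genes that passed the filter, 2 (Il6 and Ccl7) were at least 4-fold higher and 0 lower, where 5.98% and 1.76% of 14391 genes were. At 2-fold 6 were higher and 1 lower, against 17.0% and 8.96%. The median log2 difference was 1.67 over the 7 genes and 0.06 over all genes.

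Genes used as markers of other cell types also differed between these libraries, although all are of 1 cultured cell line. The summed level of 10 leukocyte markers was 9.64 CPM after DMSO, 22.8 after ADAR1i-124 and 96.6 after 5-Aza-CdR in total RNA, with 4, 4 and 8 of the 10 at 1 count or more. Cd68, a lysosomal macrophage marker, made up most of it (141, 343 and 2607 counts), and Ptprc, the common leukocyte antigen, had 0, 1 and 42 counts, while Cd3e and Ncr1 were at 0 in the 3 libraries. The summed level of 4 endothelial markers was 4.23, 18.4 and 83.2 CPM, carried by Cdh5 (63, 314 and 2805 counts), and 4 epithelial markers summed to 0.0568 to 0.231 CPM. Whether the marker genes bear on the values of the 8 genes was not tested.

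**Figure D2:**
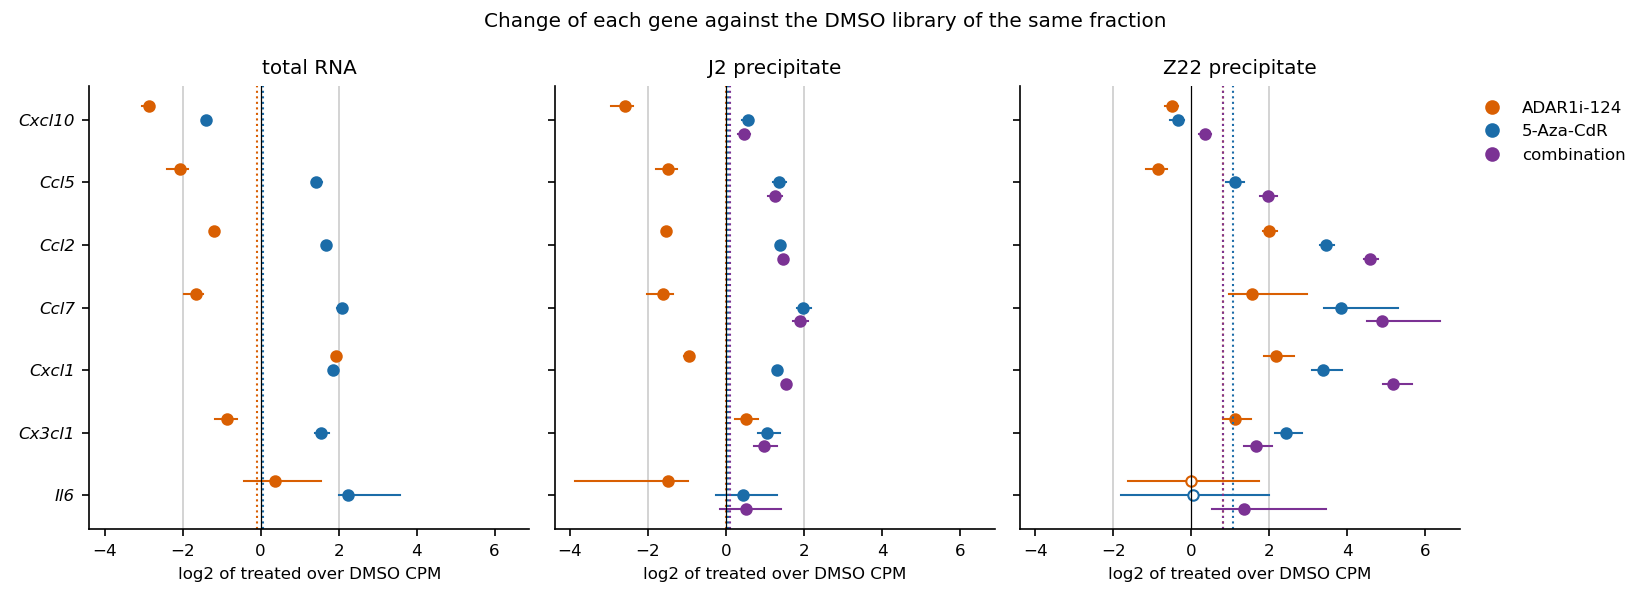
Log2 ratio of CPM (0.5 CPM added) of each treated library over the DMSO library of the same fraction for the 7 genes with enough counts, with 95% intervals of the read split; dotted lines mark the median of all genes for each comparison, grey lines the 4-fold limits, and open points genes under a mean of 1 CPM. In total RNA after ADAR1i-124, Cxcl1 (1.93) lay opposite to Cxcl10 (-2.87), and in the Z22 panel the dotted lines lie at 0.81 to 1.06.

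Ratios of counts within a library do not depend on its total. The ratio of Cxcl1 to Cxcl10 was 0.488 (0.459 to 0.518) in total RNA after DMSO, 13.9 (12.6 to 15.3) after ADAR1i-124 and 4.65 (4.45 to 4.86) after 5-Aza-CdR. With J2 it was 2.22, 7.28, 3.74 and 4.68 (DMSO, then ADAR1i-124, then 5-Aza-CdR, then combination), and with Z22 0.106, 0.711, 1.49 and 3.20. In each fraction the lowest ratio was that of DMSO, and IgG stood at 0.190. The ratio of Cxcl1 to Ccl2 was 0.140, 1.23 and 0.158 in total RNA, so that the ADAR1i-124 library alone had more Cxcl1 than Ccl2 reads. With J2 it was 0.327, 0.493, 0.308 and 0.342, and with Z22 0.238, 0.278, 0.235 and 0.376. The ratio of Ccl2 to Ccl7 moved least, from 10.9 to 28.4 over the 12 libraries. It was higher after ADAR1i-124 (28.4, 24.5 to 33.2) than after 5-Aza-CdR (14.8, 14.4 to 15.3) in total RNA, and with J2 (18.2 against 10.9) and Z22 (26.5 against 14.0) the order was the same.

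**Figure D3:**
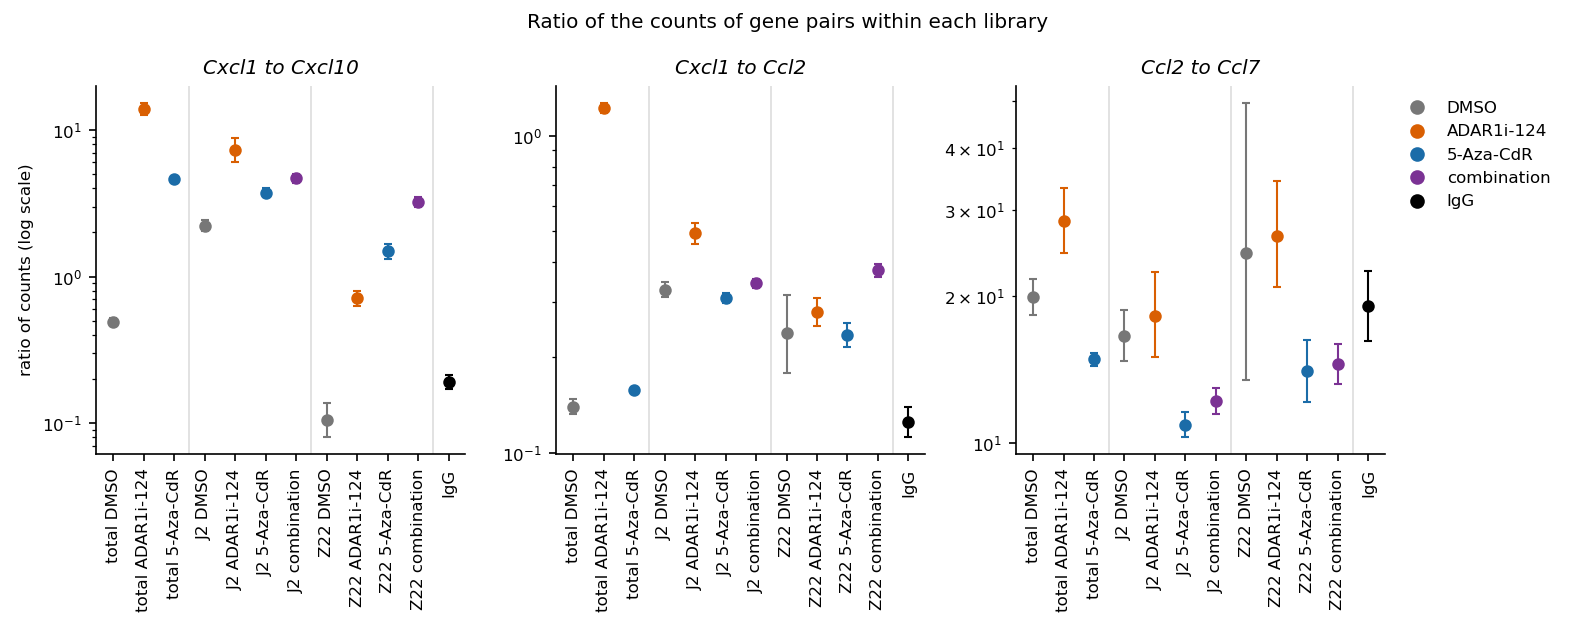
Ratio of the counts of gene pairs in each library on a log axis, 1 point per library coloured by treatment, with 95% intervals. The ratio of Cxcl1 to Cxcl10 was 0.488 in total DMSO and 13.9 in total ADAR1i-124, and 0.106 in Z22 DMSO and 3.20 in the Z22 combination.

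In the J2 precipitates, ADAR1i-124 again went with less Cxcl10, Ccl7, Ccl2 and Ccl5, and here also with less Cxcl1. Cxcl10 had 58.1 CPM after DMSO, 9.17 after ADAR1i-124, 85.6 after 5-Aza-CdR and 80.1 after the combination. Ccl5 had 33.3, 11.5, 85.7 and 79.7 CPM, Ccl7 had 23.8, 7.43, 95.4 and 89.9, and Ccl2 had 394, 135, 1039 and 1096. For these 4 genes ADAR1i-124 gave the lowest J2 value, and 5-Aza-CdR and the combination the highest. Cxcl1 followed the same order, with 129, 66.8, 320 and 375 CPM, whereas Cx3cl1 was lowest after DMSO (11.8, 17.0, 25.3 and 23.8 CPM).

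Against J2 DMSO, ADAR1i-124 gave log2 differences of -2.60 for Cxcl10 (-2.94 to -2.39), -1.62 for Ccl7, -1.54 for Ccl2, -1.49 for Ccl5, -0.95 for Cxcl1 (-1.07 to -0.84) and 0.51 for Cx3cl1 (0.22 to 0.83). Il6 went from 25 to 6 counts (log2 -1.48). Of 7 genes that passed the filter, 1 (Cxcl10) was at least 4-fold lower, where 2.71% of 13522 genes were, and 5 at least 2-fold lower, where 10.8% were. The median was -1.49 over the 7 genes and 0.00074 over all genes. Summed leukocyte markers were 61.1 CPM in J2 DMSO and 7.15 in J2 ADAR1i-124, carried by Cd68 (726 and 93 counts), and the part of this in the differences was not tested.

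Against J2 DMSO, 5-Aza-CdR gave 1.98 for Ccl7 (1.82 to 2.19), 1.40 for Ccl2, 1.35 for Ccl5, 1.31 for Cxcl1, 1.06 for Cx3cl1 and 0.55 for Cxcl10 (0.42 to 0.70), and for Il6 the interval included 0 (0.43, -0.25 to 1.30). At 4-fold 0 of 7 were higher, where 3.02% of 14007 genes were, and at 2-fold 5 were, where 8.61% were. Cxcl10 was here on the higher side, in contrast to total RNA. For Cxcl9, at 1 and 23 counts, the ratio of CPM was 21.1 with an interval on the log2 scale of 1.78 to 9.76. It was under the floor in J2 DMSO and did not pass the filter, so the size of this ratio is poorly known. Summed endothelial markers were 8.95 CPM in J2 DMSO, 3.75 after ADAR1i-124, 61.9 after 5-Aza-CdR and 61.4 after the combination. Summed leukocyte markers were lower than in J2 DMSO (61.1 CPM), at 23.6 after 5-Aza-CdR and 23.8 after the combination. The part of either in these values was not tested.

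In the J2 precipitate the combination differed little from 5-Aza-CdR alone, for these genes as for all genes. Against J2 DMSO, 1 of 8 (Cxcl9, with 1 and 47 counts) was at least 4-fold higher and 5 were at least 2-fold higher, where 2.83% and 8.21% of 14158 genes were. Cxcl9 was under the floor in J2 DMSO and passed the filter only through the combination library. Against J2 5-Aza-CdR, 0 of 8 were at least 4-fold higher, where 0.211% of 14196 genes were, and the median was -0.0040 over the 8 and 0.05 over all genes. The log2 difference was -0.10 for Cxcl10 (-0.22 to 0.03), -0.10 for Ccl5 (-0.23 to 0.02), -0.08 for Ccl7 (-0.20 to 0.03), 0.08 for Ccl2 (0.04 to 0.11) and 0.23 for Cxcl1 (0.17 to 0.29). Only Cxcl9, at 23 and 47 counts, was past 2-fold (log2 1.01, 0.46 to 1.99), where 2.08% of all genes were in either direction. Against J2 ADAR1i-124, 6 of 8 were at least 4-fold higher, where 5.33% of 13971 genes were, among them Ccl7 (12.1-fold), Cxcl10 (8.73-fold) and Ccl2 (8.09-fold). Cxcl9, at 0 and 47 counts, passed the filter only through the combination library. It was 19.2-fold higher with the 0 taken at the floor of 3 counts, and its log2 interval began at 3.91.

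In the Z22 precipitates, levels were lowest after DMSO for Ccl2, Ccl7, Cxcl1 and Cx3cl1, and highest after the combination for Cxcl1, Ccl2, Ccl5 and Ccl7. Ccl2 had 30.8, 125, 343 and 755 CPM after DMSO, after ADAR1i-124, after 5-Aza-CdR and after the combination. Cxcl1 had 7.33, 34.7, 80.6 and 284 CPM, and Ccl7 had 1.26, 4.71, 24.5 and 52.0. These 3 genes stood in the same order across the 4 libraries. Ccl5 had 26.7, 14.5, 58.2 and 105 CPM, with the lowest value after ADAR1i-124. Cxcl10 had 69.3, 48.8, 54.2 and 88.7 CPM by library total, an order that changes with the scaling. Cx3cl1 was highest after 5-Aza-CdR, with 85, 322, 443 and 291 counts (54.2 CPM after 5-Aza-CdR).

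Comparisons with Z22 DMSO carry the shift of that library, since the median log2 difference of all genes was 0.81 for ADAR1i-124, 1.06 for 5-Aza-CdR and 0.82 for the combination. Against Z22 DMSO, ADAR1i-124 gave 2.17 for Cxcl1 (1.53 with TMM factors and 1.35 with DESeq2 size factors), 2.0 for Ccl2 (1.33 and 1.15), 1.56 for Ccl7 (1.06 and 0.91), 1.13 for Cx3cl1 (0.48 and 0.30), -0.50 for Cxcl10 (-1.18 and -1.36) and -0.86 for Ccl5 (-1.53 and -1.72). At 4-fold 2 of 6 were higher, where 13.2% of 12799 genes were, and none was under either of these scalings. Ccl2 and Ccl7 were thus higher after ADAR1i-124 in Z22 and lower in total RNA and J2 under all 3 scalings.

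With 5-Aza-CdR, 4 of 6 genes (Ccl7, Ccl2, Cxcl1 and Cx3cl1) were at least 4-fold higher than Z22 DMSO, where 20% of 13716 genes were, with log2 differences of 3.83, 3.46, 3.37 and 2.42. With TMM factors these were 3.04, 2.5, 2.44 and 1.48, and with DESeq2 size factors 2.98, 2.39, 2.35 and 1.38, which leaves 3 of them past 4-fold. Cxcl10 gave -0.35 by library total, -1.31 with TMM factors and -1.42 with DESeq2 size factors. With the combination, 4 of 8 were at least 4-fold higher (Cxcl1 5.18, Ccl7 4.90, Ccl2 4.59 and Cxcl9), where 14.2% of 13276 genes were. Cxcl9, with 0 and 22 counts, passed the filter only through the combination library. Its CPM was 7.0-fold higher with the 0 taken at the floor, and its log2 interval began at 2.39. Cxcl1, Ccl7 and Ccl2 gave 4.5, 4.35 and 3.88 with TMM factors and 4.37, 4.26 and 3.74 with DESeq2 size factors. Cxcl10 stood at 0.35 by library total, -0.37 with TMM factors and -0.50 with DESeq2 size factors, so its direction depends on the scaling and the combination is then not its highest value. In the Z22 libraries summed leukocyte markers were 16.6, 14.0, 48.8 and 61.1 CPM and endothelial markers 7.33, 4.36, 32.2 and 26.8 CPM, in the same order of treatments, and their part in these values was not tested.

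Against Z22 5-Aza-CdR, a comparison that leaves out the DMSO library, the combination gave 1.81 for Cxcl1 (1.70 to 1.94), 1.14 for Ccl2 (1.08 to 1.2), 1.07 for Ccl7 (0.85 to 1.33), 0.85 for Ccl5 (0.69 to 1.01), 0.70 for Cxcl10 (0.54 to 0.88) and -0.76 for Cx3cl1 (-0.99 to -0.55). Il6, with 6 and 23 counts, gave 1.29 (0.44 to 3.36). At 4-fold 0 of 8 were higher, where 0.369% of 14365 genes were, and at 2-fold 4 were (Cxcl1, Il6, Ccl2 and Ccl7), where 2.28% were. The median was 0.96 over the 8 genes and -0.18 over all genes. Cxcl1 was above 99.5% of all genes in this comparison, whereas the same comparison with J2 put it above 71.2%. The difference between the antibodies was not tested. Against Z22 ADAR1i-124, 4 of 8 were at least 4-fold higher, where 3.11% of 13708 genes were: Ccl7 (11.1-fold), Cxcl1 (8.19-fold), Ccl5 (7.27-fold) and Ccl2 (6.05-fold).

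**Figure D4:**
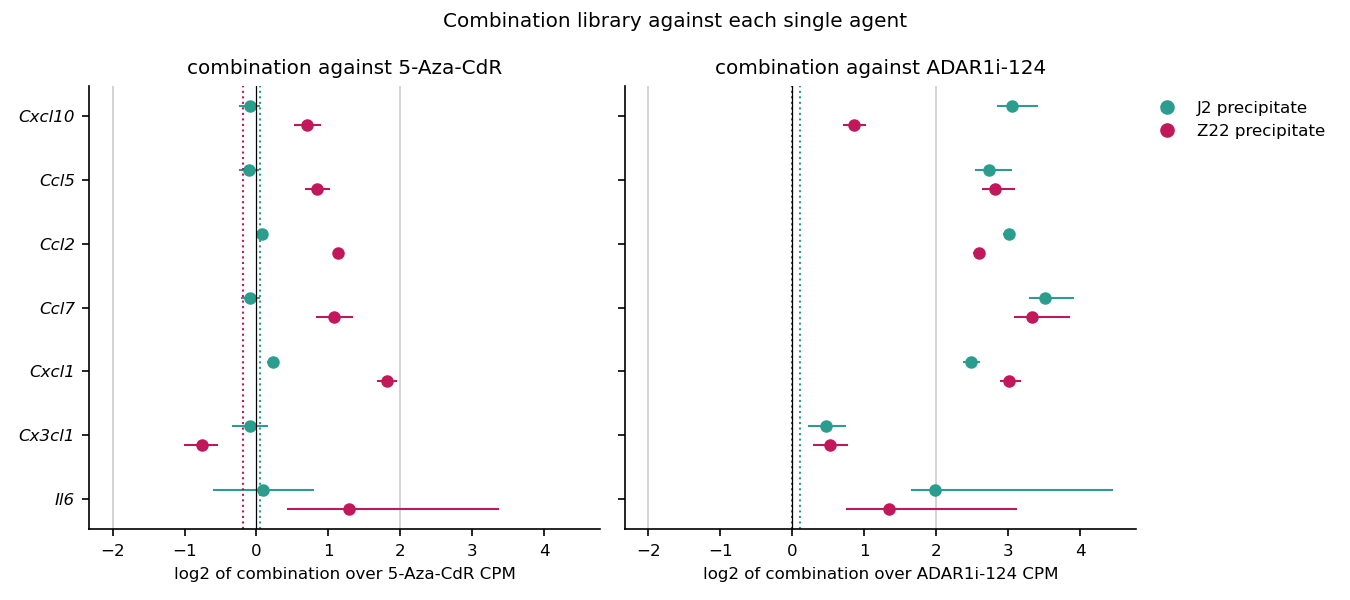
Log2 ratio of CPM of the combination library over each single-agent library in the J2 and Z22 precipitates for 7 genes (Cxcl9 is not drawn), with 95% intervals of the read split; dotted lines mark the median of all genes and grey lines the 4-fold limits. Against 5-Aza-CdR the J2 points lie between -0.10 and 0.23 and the Z22 points between -0.76 and 1.81.

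The chemokine mRNAs were also present in the IgG precipitate. The IgG library had 194 CPM of Ccl2, 127 of Cxcl10, 24.2 of Cxcl1, 21.1 of Cx3cl1, 19.4 of Ccl5 and 10.2 of Ccl7. Cxcl10 was lower than IgG in all 8 antibody libraries, with log2 differences from -3.72 (J2 ADAR1i-124) to -0.52 (Z22 combination). In Z22 DMSO its value was -0.87, near the median of all genes (-0.83), and it was -0.24 with TMM and -0.063 with DESeq2 factors. Cxcl1 was above IgG in 7 of 8, with Z22 DMSO the exception. Since the treatment behind IgG is not given, antibody and treatment cannot be told apart in this comparison.

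At a 4-fold line against IgG, 1 of 7 genes (Cxcl1) was higher in J2 DMSO, where 2.81% of all genes were, 4 of 7 in J2 5-Aza-CdR (Cxcl1, Ccl7, Ccl2 and Ccl5; 4.19%), and 5 of 8 in the J2 combination (the same 4 and Cxcl9, which passed the filter only through that library; 5.32%). In the Z22 combination 3 of 8 were (Cxcl1, Ccl5 and Ccl7; 4.78%). On the lower side stood Cxcl10 in J2 ADAR1i-124 (1 of 6; 0.573%) and Ccl2 and Ccl7 in Z22 DMSO (2 of 6; 20%). Ccl2 and Ccl7 gave -2.63 and -2.60 there by library total, -2.01 and -2.14 with TMM factors, and -1.83 and -2.0 with DESeq2 size factors, which leaves 1 of them (Ccl7) past the line. None of 6 genes was past 4-fold in the Z22 libraries of ADAR1i-124, where 0.480% of all genes were higher and 0.0232% lower, and of 5-Aza-CdR, where 5.70% and 0.470% were.

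Set against total RNA of the same treatment, 1 of 6 genes was at least 4-fold lower in J2 after ADAR1i-124 (Cxcl1, log2 -2.39, where 2.39% of 13475 genes were), and 1 of 7 in Z22 (again Cxcl1, -3.33; 1.05%). In Z22 after 5-Aza-CdR 4 of 8 were lower (Ccl2 -2.61, Ccl7 -2.51, Il6 -2.46 and Cxcl1 -2.03; 3.41% of 14813 genes), and in Z22 DMSO 3 of 6 (Ccl2 -4.39, Ccl7 -4.25 and Cxcl1 -3.56; 28.1% of 13192). The Cxcl1 value after 5-Aza-CdR lay close to the line and fell short of it with TMM and DESeq2 size factors. None was past 4-fold in J2 DMSO, where 1.11% of all genes were higher and 1.26% lower, or in J2 5-Aza-CdR, where 0.743% and 3.47% were. For Cxcl1 after ADAR1i-124, 1.04% of genes lay lower than it in J2 and 0.0521% in Z22 on this scale. The Z22 DMSO values carry the shift of that library, with a median of -1.18 over all genes. For Ccl2, Ccl7 and Cxcl1 they were -3.41, -3.44 and -2.60 with TMM factors and -3.17, -3.24 and -2.37 with DESeq2 size factors, and all 3 were past 4-fold under both.

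The transcription factors known to drive these genes fell on both sides in total RNA after ADAR1i-124. Of 18 factors and regulators, all with enough counts, 3 were at least 4-fold higher and 3 lower after ADAR1i-124, against 1.88% and 2.05% of all genes, and 3 and 0 after 5-Aza-CdR, against 5.98% and 1.76%. The 3 lower were all of the interferon pathway: Irf7, the amplifier of type I interferon, had 1422 and 15 counts (log2 -5.96), Stat2 3310 and 211 (-3.97), and Irf9 1489 and 180 (-3.04). After 5-Aza-CdR the same genes gave 1.42, 0.34 and -0.13.

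The 3 higher after ADAR1i-124 were the AP-1 subunit Jun, with 512, 2906 and 4201 counts after DMSO, ADAR1i-124 and 5-Aza-CdR (log2 2.44 and 2.0 against DMSO), the stress-induced factor Atf3, with 147, 680 and 351 (2.10 and 0.22), and Cebpb, with 111, 493 and 1053 (2.02 and 2.14). After 5-Aza-CdR the 3 were Cebpd (131, 105 and 1559 counts; log2 -0.34 and 2.48), Cebpb, and Tnfaip3, an NF-κB target that restrains the pathway (148, 574 and 1354; 1.85 and 2.11). The NF-κB subunits were all short of the line. After ADAR1i-124 Nfkb2 gave 1.84, Rela 1.27, Relb 1.26, Rel 0.28 and Nfkb1 -0.01, and after 5-Aza-CdR 1.27, 0.94, 1.26, -0.16 and 0.19. The median over the 18 was 0.63 after ADAR1i-124 and 1.1 after 5-Aza-CdR. Among the cytokines that feed these factors, Ifnb1 had 3, 0 and 6 counts, Tnf 0, 1 and 43, and Il1a 2, 17 and 57, and none of 9 genes of interferons, Tnf and Il1 passed the filter.

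**Figure D5:**
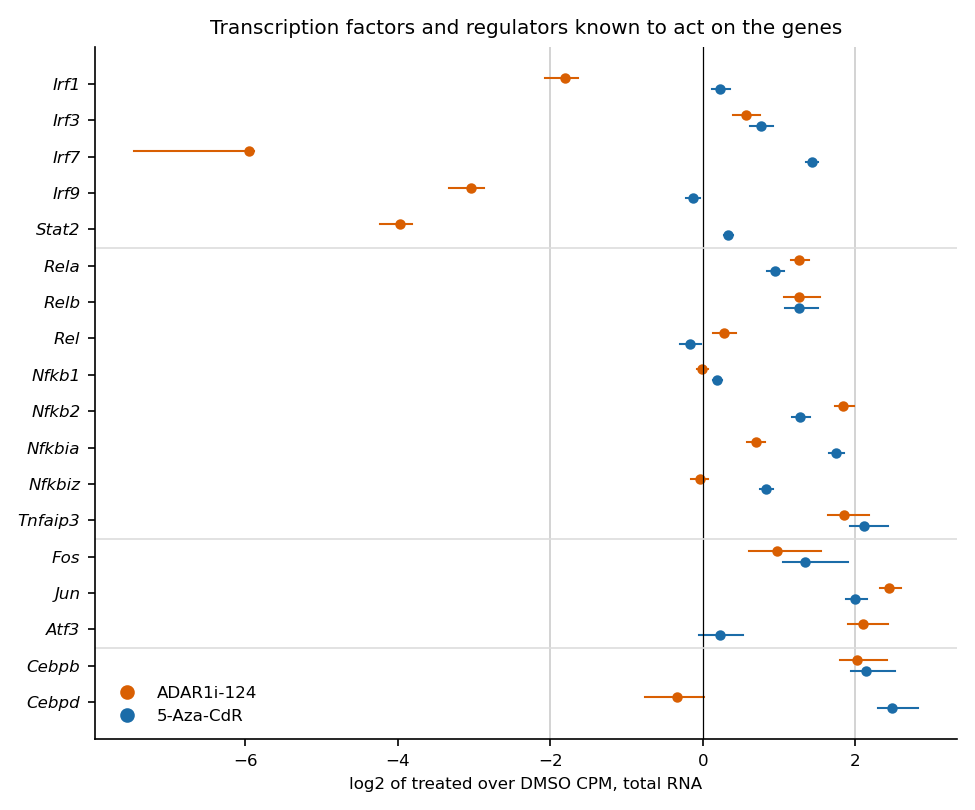
Log2 ratio of CPM in total RNA over DMSO for 18 transcription factors and regulators, with 95% intervals of the read split; horizontal lines part the interferon, NF-κB, AP-1 and C/EBP genes and grey vertical lines mark 4-fold. After ADAR1i-124 Irf7, Stat2 and Irf9 lay between -5.96 and -3.04 and Jun at 2.44.

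Most other ligands of the families had few counts in total RNA. Of 12 other CXC chemokines 1 passed the filter for ADAR1i-124 and 2 for 5-Aza-CdR, of which 0 and 1 (Cxcl16) were at least 4-fold higher, against 1.88% and 5.98% of all genes. Cxcl12, a homeostatic chemokine, had 102, 325 and 95 counts after DMSO, ADAR1i-124 and 5-Aza-CdR (log2 1.54 and -1.0), and Cxcl16 had 7, 14 and 173. Cxcl2, which shares the receptor of Cxcl1, had 0, 34 and 68 counts in total RNA, 2, 10, 91 and 289 with J2, and 0, 6, 13 and 176 with Z22, the largest values being those of the combination in both. It was named after its values were seen, as were the NF-κB genes, Atf3, Cebpb, Ifnb1, Tnf and Il1a above, the single markers other than Cd68, Cdh5 and Mitf, and Cxcr2, Ccr2, Adam10 and Adam17 below. Of 17 other CC and XC chemokines 3 and 4 passed, and none was past 4-fold, against the same shares higher and 2.05% and 1.76% lower. Ccl8 had 16, 8 and 137 counts, and Ccl20 had 73, 50 and 33.

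Genes of the IL-6 family and its signalling passed the 4-fold line after 5-Aza-CdR and not after ADAR1i-124, though the difference between the agents was not tested. Of 8 other IL-6 family cytokines 3 passed the filter, of which 0 and 2 were at least 4-fold higher after ADAR1i-124 and 5-Aza-CdR, against 1.88% and 5.98% of all genes, with medians of 1.03 and 2.18. Il11 had 16, 43 and 627 counts (log2 1.03 and 3.69), Lif 708, 909 and 6585 (0.31 and 2.18), and Clcf1 540, 1300 and 3418 (1.2 and 1.62). Of 10 IL-6 signalling genes 0 and 2 were at least 4-fold higher, against the same shares of all genes: Socs3, the feedback inhibitor that Stat3 induces, had 227, 348 and 4167 counts (0.55 and 3.13), and Bcl3 13, 61 and 1172 (1.65 and 4.77). The receptor chains were expressed throughout, with Il6ra at 97.1, 45.9 and 75.8 CPM and Il6st at 549, 405 and 377.

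Of 8 chemokine receptors 0 passed the filter for ADAR1i-124 and 3 for 5-Aza-CdR (Cxcr3, Ccr1 and Cx3cr1). After 5-Aza-CdR 2 of these were at least 4-fold higher, where 5.98% of all genes were: Cxcr3, the receptor of Cxcl9 and Cxcl10, had 29, 3 and 661 counts and Ccr1 0, 15 and 79. Ccr1, at 0 counts after DMSO, passed the filter only through the 5-Aza-CdR library. Cxcr2 had 1, 2 and 7 counts and Ccr2 0, 0 and 27. Among 12 mRNA decay factors, Zfp36, which binds AU-rich elements and promotes decay, had 367, 1759 and 3859 counts (log2 2.18 and 2.35) and was the 1 gene of its list past 4-fold in each comparison, where 1.88% and 5.98% of all genes were at least 4-fold higher. Of 8 proteases that passed the filter, 0 and 2 were at least 4-fold higher, against the same shares, among them Mmp9, which trims chemokines, with 99, 21 and 3244 counts (-1.90 and 3.90). Adam10 and Adam17, the sheddases of Cx3cl1, gave -0.51 and -0.49 after ADAR1i-124 and 0.03 and 0.35 after 5-Aza-CdR.

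Across the 12 libraries, Ccl2 and Ccl7 had the most similar profiles of any pair among the 8 genes (Pearson r of log2 CPM 0.985), and Cxcl10 and Cxcl1 the least (-0.02). Among 13993 genes that averaged 1 CPM or more, Ccl7 was the closest of all to Ccl2, followed by Pros1 (0.975) and Map3k8 (0.975). Closest to Cxcl1 were Slc7a11, the cystine transporter (0.979), Ankrd33b (0.968) and Gm37498 (0.961). Closest to Ccl5 were Ifi213 (0.973), Gm19684 (0.968) and Zbp1, the sensor of Z-form nucleic acid (0.967). For Cxcl10 they were Olfr56 (0.867), Fam173a (0.849) and Ifit2, an interferon-stimulated gene (0.827). Cx3cl1 was closest to Rps6ka1 (0.946), Greb1 (0.941) and Mtus1 (0.932), Ccl7 beside Ccl2 to Slc31a2 (0.971) and Cyp4v3 (0.964), and Il6 to Phyh (0.965), Tmub1 (0.957) and Zkscan2 (0.949). Cxcl9 fell under the filter. With each fraction centred and 11 libraries, only 5 of these 21 neighbours were kept: Cxcl10 was then closest to Trim44 (0.966) and Rsad2 (0.953), and Ccl5 to Ly6e (0.991) and H2-K1 (0.985). These correlations are descriptions over 12 libraries that share depth, treatment and fraction, and genes are not independent of each other.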

How the data were processed

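The authors deposited a table of raw counts per gene. Per the submitters' processing notes the build was mm10 (GRCm38), and the study's methods name snakePipes with STAR; the counting tool and its strand setting are not given in the sources used here. Of 54532 genes, 54495 had a symbol in the annotation and 37 had none. Counts were divided by library totals (CPM). Log2 ratios used a pseudocount of 0.5 CPM and took in genes that averaged 1 CPM or more in the 2 libraries compared. A gene with few counts in 1 of the 2 could thus pass through the other alone. Intervals are 95% (Poisson for a level, Clopper-Pearson of the read split for a ratio). With 1 library per condition no test was made and no p-value is given. Lines of 4-fold and 2-fold and a floor of 3 counts were used. Alternatives were TMM (edgeR 4.0.16) and size factors (DESeq2 1.42.0) in R 4.3.3, totals without the 20 highest genes, pseudocounts of 0.1 and 2 CPM, no filter and a filter of 5 CPM. Other steps used Python 3.11.15 with numpy 2.4.6, pandas 2.3.3, scipy 1.17.1 and matplotlib 3.10.9. Of these, only the log2 ratios and their intervals were tried on simulated counts, for 2 comparisons and with counting error alone. Named genes were the 8 genes, the 3 most alike to each, at most 5 of each list by size of difference in total RNA, and overlapping genes; others are marked as chosen later. The genes and lists were chosen with earlier results of these data known. The total RNA library of the combination was not read. A few genes are not reported here.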

Additional observations from a re-analysis of the deposited data

Results flagged for a closer look

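For 5 genes the same agent gave differences of opposite sign in the fractions, counting only values past the filter with intervals of a single sign. With 1 library per condition these differences between fractions were not tested, and the Z22 values rest on the Z22 DMSO library that stands apart. Against DMSO of the same fraction, 5-Aza-CdR gave log2 differences for Cxcl10 of -1.39 in total RNA, 0.55 with J2 and -0.35 with Z22, the last being -1.31 with TMM and -1.42 with DESeq2 factors. ADAR1i-124 gave 1.93, -0.95 and 2.17 for Cxcl1 in the same order, the last being 1.53 with TMM and 1.35 with DESeq2 factors. For the monocyte chemokines it gave -1.19, -1.54 and 2.0 for Ccl2 and -1.66, -1.62 and 1.56 for Ccl7, the Z22 values being 1.33 and 1.15 for Ccl2 and 1.06 and 0.91 for Ccl7 with TMM and DESeq2 factors. For Cx3cl1 it gave -0.86, 0.51 and 1.13, the last being 0.48 with TMM and 0.30 with DESeq2 factors, where the median of all genes was 0.81 by library total.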

How the results depend on the processing

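With 1 library per condition no replicate could be left out, and a comparison of the antibodies with the treatments as pairs was not run. Of the values of single genes under the alternatives, 796 stayed within their counting interval, 233 moved beyond it and 11 changed sign. A change of sign was counted only where the gene passed the filter and its interval excluded 0. Other changes of sign are not among the 11. Of the counts of genes past 4-fold, 165 stayed within 1.5 times and 17 did not, the 2-fold line left aside. For all of these the cause was not tested. The count for Z22 ADAR1i-124 over DMSO went from 2 to 0 with TMM factors, DESeq2 size factors, totals without the 20 highest genes and a pseudocount of 2, and that for the Z22 combination over 5-Aza-CdR from 0 to 1 with TMM and DESeq2 factors. Z22 DMSO over IgG went from 2 to 1 with DESeq2 factors and a pseudocount of 2. Without the 20 highest genes, J2 5-Aza-CdR over DMSO went from 0 to 1 and the Z22 combination over IgG from 3 to 5. With a pseudocount of 0.1, J2 ADAR1i-124 over DMSO went from 1 to 2. With a pseudocount of 2, total ADAR1i-124 and total 5-Aza-CdR over DMSO each went from 2 to 1, the J2 combination over DMSO from 1 to 0 and over IgG from 5 to 3. With a filter of 5 CPM, total 5-Aza-CdR over DMSO went from 2 to 1 and the J2 combination over DMSO from 1 to 0.

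At a 2-fold line, with higher and lower counted together and the share of all genes past it in brackets, the counts over DMSO were 5 for total ADAR1i-124 (1 higher and 4 lower; 16.4%), 7 for total 5-Aza-CdR (6 and 1; 26.0%), 5 for each of the J2 treatments (18.2% for ADAR1i-124, all 5 lower, and 14.6% and 12.1% for 5-Aza-CdR and the combination, all 5 higher), 4 for Z22 ADAR1i-124 (48.0%), 5 for Z22 5-Aza-CdR (56.2%) and 7 for the Z22 combination (48.5%). For the combination over 5-Aza-CdR they were 1 with J2 (2.08%) and 4 with Z22 (9.40%), and over ADAR1i-124 7 (20%) and 6 (16.2%). Over IgG they were 4 for J2 DMSO (22.4%), 2 for J2 ADAR1i-124 (10.1%), 5 for J2 5-Aza-CdR (18.6%), 6 for the J2 combination (25.9%), and 4, 2, 5 and 5 for Z22 (DMSO first, then ADAR1i-124 and 5-Aza-CdR, then both; 56.7%, 9.0%, 26.5% and 27.8%). Over total RNA they were 1, 3 and 2 for J2 DMSO, ADAR1i-124 and 5-Aza-CdR (22.9%, 19.8% and 23.9%) and 4 for each Z22 library (61.2%, 16.5% and 21.2%). By the rule for changes of sign given above, Cxcl10 changed sign in the Z22 combination over DMSO (-0.37 with TMM, -0.50 with DESeq2 and -0.024 without the 20 highest genes). Under the same 3 scalings Ccl5 did so in J2 over total RNA after 5-Aza-CdR (0.037, 0.16 and 0.13) and in Z22 over total RNA after DMSO (0.50, 0.75 and 0.28). Cx3cl1 did so in the latter (0.14 with TMM and 0.38 with DESeq2). Depth limits Cxcl9 and Il6 most, since a floor of 3 counts is 0.0868 to 0.367 CPM.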
